A study of Homo sapiens with 9 samples.

Results

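The genes described here are 10 regulators and markers of the epithelial to mesenchymal transition (EMT): the transcription factors SNAI1, SNAI2, ZEB1, ZEB2, TWIST1 and TWIST2, the splicing regulators ESRP1 and ESRP2, the mesenchymal filament gene VIM and the epithelial adhesion gene EPCAM. They were taken by gene symbol from a table of 58884 genes. The rule uses no measured value, but the genes were chosen with earlier results of these data known. RNA-seq was performed on the MDA-MB-231 human breast cancer cell line (Par) and on LM2 and BrM2, sub-populations of it that were selected in mice for growth in lung and brain. Each line had 3 biological replicates, which gave 9 libraries. The labels give no drug or genetic treatment for any line. All were grown as monolayers in DMEM with fetal bovine serum and antibiotics for 3 days, and the replicates of a line were harvested at different passages. Each sub-population is represented by 1 selected line grown in a dish. The p-values therefore measure the spread between replicate libraries, pooled over the 3 lines, and not between independent selections. With line as the only term, this spread includes the differences between replicate numbers that the lines share. Poly(A) RNA of whole cultures was sequenced, and fewer cells expressing a gene cannot be told apart from less RNA per cell.

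During EMT, epithelial cells lose their junctions and take on a migratory, mesenchymal form. SNAI1 and SNAI2 (zinc finger proteins), ZEB1 and ZEB2 (zinc finger and homeobox proteins) and TWIST1 and TWIST2 (basic helix-loop-helix proteins) bind E-box motifs, and several of them repress junction genes such as CDH1. ESRP1 and ESRP2 are RNA-binding proteins that maintain the epithelial splice forms of genes such as FGFR2, CD44 and CTNND1, and ZEB and SNAI factors are known repressors of ESRP genes. MDA-MB-231 is a claudin-low line that is already mesenchymal in form.

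The libraries held 14371858 to 24511786 counts each. Of the 58884 genes, 13055 passed the filter on low counts and were tested. Of the 10 members, 7 were tested, namely VIM, SNAI1, SNAI2, ZEB1, ZEB2, EPCAM and ESRP2, while ESRP1, TWIST1 and TWIST2 lay under the filter. The filter keeps a gene that is above the threshold in any 1 library, so a gene low in most libraries is tested only through those where it is high, as SNAI1 was through replicate 1 of Par and of LM2. Levels are given as CPM, counts brought to a common library size and scaled between libraries by the trimmed mean of M-values, as mean ± SD with n = 3 per line. Markers of the labelled mammary epithelial cell type were mixed: the keratin genes KRT8 and KRT18 had 6882 to 22510 counts in each library, whereas CDH1 (E-cadherin) had 3 to 37 and KRT14 had 1 to 5. KRT5 had 0 to 15 counts. Other markers differed between the lines: in Par, LM2 and BrM2, KRT7 averaged 488, 174 and 60.9 CPM. KRT19 averaged 206, 45.5 and 191 CPM and MUC1 19.7, 2.45 and 0.418 CPM in the same order. Of the 5 leukocyte markers, PTPRC, CD3E, CD79A and CD68 did not exceed 8 counts in any library and CD14 had 21 to 87, and their summed level was 2.63 to 4.99 CPM in Par, 1.61 to 3.48 in LM2 and 1.37 to 3.32 in BrM2. Of the neural and endothelial markers, GFAP had 125 to 428 counts, MAP2 17 to 165 and PECAM1 39 to 183, and the others at most 9. The part of these signals in the results was not tested.

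In the metastatic lines the mesenchymal filament gene VIM was about doubled against Par, by 2.12-fold in LM2 and 2.07-fold in BrM2, and both differences passed the test. The epithelial splicing regulator ESRP2 fell 3.10-fold in LM2 and rose 1.78-fold in BrM2, so that BrM2 held 5.52 times the level of LM2. Its rise in BrM2 against Par was less firm, and that call was kept in 2 of the 9 fits without a single library. No EMT transcription factor among the members passed the main edgeR fit of all 9 libraries, with TMM scaling and line as the only term. SNAI2 in BrM2 against LM2 passed with other scaling, another filter or DESeq2, but not with no filter or with 2 lines only. It passed in 1 of the 9 fits without a single library. ZEB2 in LM2 against Par passed with DESeq2. With the replicate number as a block, SNAI2 and ZEB2 were higher in LM2 than in Par and in BrM2, ZEB1 was lower in BrM2 than in LM2, and EPCAM was lower in LM2 than in Par. TWIST1 and TWIST2 had no counts in any library.

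**Figure D1:**
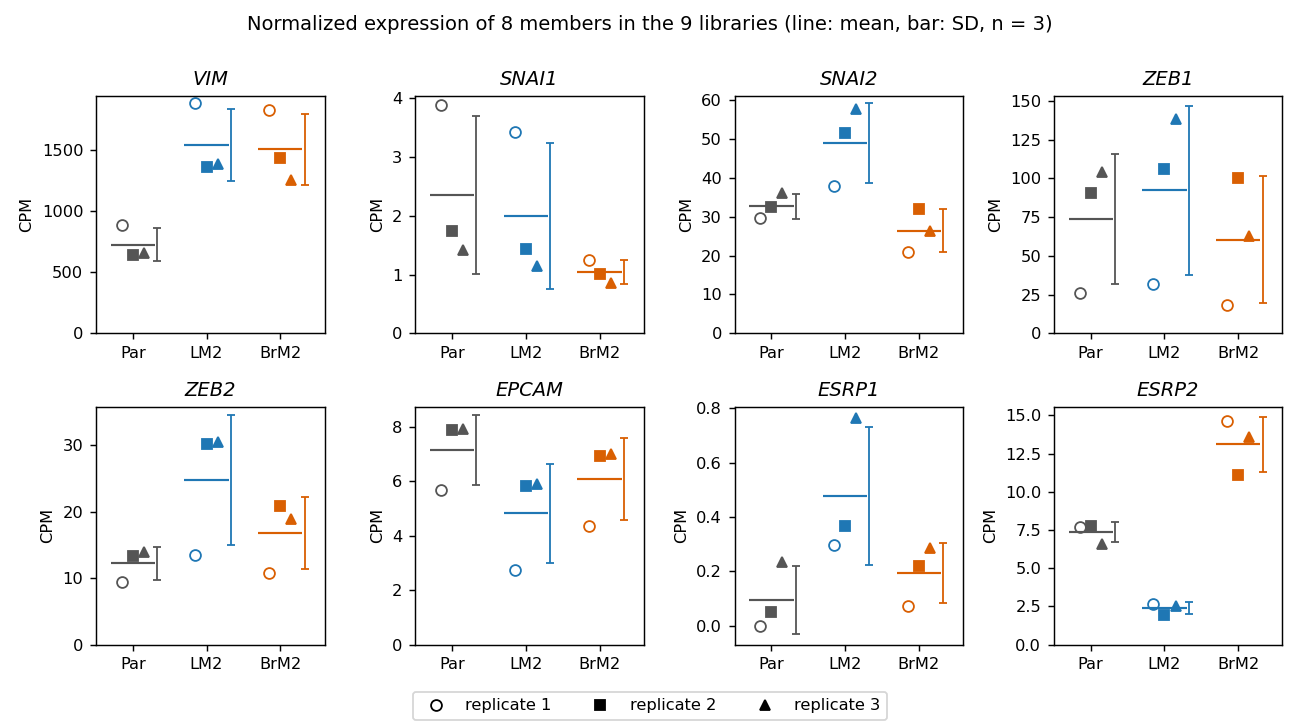
Normalized expression in CPM (y axis) of the 8 members with counts, in the 3 replicates of Par, LM2 and BrM2 (x axis, 1 point per library, horizontal line at the mean, bar for the SD). VIM in every LM2 and BrM2 library lay above every Par library, and ESRP2 lay at 1.96 to 2.68 CPM in LM2, 6.60 to 7.74 CPM in Par and 11.1 to 14.6 CPM in BrM2.

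Regulatory sequence could be read for a few members. The bases before the annotated start site are shown for VIM, a member that rose in both metastatic lines, and for ZEB2, which has a single such start site in the table, because E-boxes (CANNTG, either strand, since the motif is its own reverse complement) are what the SNAI, ZEB and TWIST proteins bind. The sequences are from RefSeq on GRCh38.p14 and run 5′ to 3′ on the strand of the gene over the 250 bases that end at the start site, with CANNTG in capitals.
VIM, chr10:17227991-17228240, plus strand: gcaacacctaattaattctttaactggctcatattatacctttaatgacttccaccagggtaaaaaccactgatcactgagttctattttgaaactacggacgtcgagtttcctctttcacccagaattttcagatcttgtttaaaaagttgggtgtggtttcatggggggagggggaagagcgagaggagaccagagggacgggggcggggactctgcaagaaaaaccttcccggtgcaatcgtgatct
ZEB2, chr2:144520120-144520369, minus strand: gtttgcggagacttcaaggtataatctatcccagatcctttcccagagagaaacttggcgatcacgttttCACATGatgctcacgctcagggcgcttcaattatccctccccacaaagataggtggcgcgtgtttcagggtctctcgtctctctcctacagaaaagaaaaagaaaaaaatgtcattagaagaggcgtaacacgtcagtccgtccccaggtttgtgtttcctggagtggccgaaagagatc
The VIM window held no CANNTG and had a GC content of 46.0%. The ZEB2 window held 1 CANNTG, 180 bases before the start site, and its GC content was 48.0%. Neither window held CAGGTG or its reverse complement CACCTG, the form of E-box bound by SNAI and ZEB proteins. Of the 35116 windows of this length in the table, 61.8% held CANNTG and 17.5% held CAGGTG or CACCTG. ZEB1 had 7 annotated start sites, of which 2 had CAGGTG or CACCTG in the window, and the single TWIST2 window had no CANNTG. Windows matched 4 of the 10 members. A match is a description of the letters in this window and no measure of binding.

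The mature miR-200 microRNAs are shown because they are the known repressors of ZEB1 and ZEB2 messages and fall into families by seed. Sequences are from RefSeq on GRCh38.p14, 5′ to 3′, with the seed (bases 2 to 8) in capitals. The first 3 share the seed AAUACUG and the last 2 share AACACUG.
hsa-miR-200b-3p: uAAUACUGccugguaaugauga
hsa-miR-200c-3p: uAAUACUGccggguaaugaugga
hsa-miR-429: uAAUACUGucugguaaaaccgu
hsa-miR-200a-3p: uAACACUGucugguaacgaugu
hsa-miR-141-3p: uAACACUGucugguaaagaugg
Libraries of poly(A) RNA do not measure mature microRNAs. The gene rows of these microRNAs held 1 count in total over the 9 libraries, for MIR200B, and the host transcript MIR200CHG held 0.

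VIM encodes vimentin, the intermediate filament protein of mesenchymal cells. It lies at chr10:17228241-17237593 (GRCh38.p14, plus strand, ENSG00000026025). In replicates 1, 2 and 3, Par had 882, 636 and 655 CPM. LM2 had 1876, 1356 and 1380.1 CPM, and BrM2 had 1821, 1432 and 1253 CPM. Every LM2 and BrM2 library was above every Par library, and replicate 1 was the highest of each line. The means were 725 ± 137 CPM in Par, 1537 ± 293 in LM2 and 1502 ± 291 in BrM2. The log2 fold change was 1.09 (SE 0.23, 95% confidence interval 0.57 to 1.60, adjusted p = 0.020, edgeR quasi-likelihood test with Benjamini-Hochberg adjustment) for LM2 against Par. For BrM2 against Par, which used the same Par libraries, it was 1.05 (SE 0.23, 0.53 to 1.57, adjusted p = 0.016, edgeR). Within replicate numbers the LM2 difference was nearly constant, at 1.09, 1.09 and 1.08 on the log2 scale, and the BrM2 difference was 1.05, 1.17 and 0.94. LM2 and BrM2 differed by -0.03 (interval -0.55 to 0.48, adjusted p = 0.96, edgeR). Leaving out Par replicate 2 or Par replicate 3 ended both calls, and leaving out BrM2 replicate 2 ended that for BrM2. Over the 9 fits without a single library the log2 fold changes were 0.92 to 1.25 for LM2 and 0.89 to 1.22 for BrM2, and the adjusted p-values (edgeR) reached 0.0997 and 0.081. VIM-AS1, a non-coding gene on the other strand, overlaps 12.7% of the exon bases of VIM and had 35 to 166 counts per library, against 13148 to 37754 for VIM.

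SNAI1 (Snail) lies at chr20:49982980-49988886 (plus strand, ENSG00000124216) and is a zinc finger repressor of CDH1. Its counts were low: 74, 36 and 36 in Par, 69, 35 and 30 in LM2 and 17, 23 and 18 in BrM2. As CPM, every BrM2 library (0.863 to 1.25) lay under every Par library (1.41 to 3.89), whereas LM2 (1.15 to 3.43) overlapped both. Replicate 1 was the highest library in each line. The means were 2.35 ± 1.34 CPM in Par, 2.0 ± 1.24 in LM2 and 1.04 ± 0.198 in BrM2. BrM2 against Par gave a log2 fold change of -1.17 (SE 0.54, interval -2.39 to 0.04, adjusted p = 0.22, edgeR), and with the replicate block -1.04 (SE 0.29, adjusted p = 0.013, edgeR). BrM2 against LM2 gave -0.94 (adjusted p = 0.38, edgeR) and with the block -0.80 (adjusted p = 0.0499543, edgeR). Both block values rest on a gene that passed the filter only through Par replicate 1 and LM2 replicate 1. Without LM2 replicate 1 the value against LM2 was -0.32, without Par replicate 1 the value against Par was -0.61, and without replicate 1 of all lines they were -0.44 (adjusted p = 0.34, edgeR) and -0.73 (adjusted p = 0.12, edgeR). LM2 against Par gave -0.23 (interval -1.38 to 0.92, adjusted p = 0.89, edgeR), and its sign turned when LM2 replicate 3 or Par replicate 1 was left out, at 0.05 and 0.33.

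SNAI2 (Slug) is the second zinc finger repressor of this family and lies on chromosome 8 (48917598 to 48921429, ENSG00000019549). In replicates 1, 2 and 3 it had 29.6, 32.4 and 36.0 CPM in Par. LM2 had 37.8, 51.6 and 57.8 CPM, and BrM2 had 20.9, 32.0 and 26.4 CPM. LM2 was above all libraries of Par and of BrM2, and BrM2 overlapped Par. The means were 32.7 ± 3.21 CPM in Par, 49.1 ± 10.2 in LM2 and 26.4 ± 5.56 in BrM2. The log2 fold change of LM2 against Par was 0.59 (SE 0.23, interval 0.06 to 1.11, adjusted p = 0.19, edgeR), and 0.57 with the replicate block (SE 0.14, adjusted p = 0.0086, edgeR). BrM2 against LM2 gave -0.89 (SE 0.24, interval -1.42 to -0.36, adjusted p = 0.053, edgeR), with an adjusted p of 0.00068 under the block. With line as the only term this difference also passed with RLE scaling (adjusted p = 0.044, edgeR), with the filterByExpr filter (adjusted p = 0.047, edgeR) and with DESeq2 (adjusted p = 0.0025). It did not pass with no filter (adjusted p = 0.11, edgeR) or with 2 lines only (adjusted p = 0.15, edgeR). Of the 9 fits without a single library it passed in 1, that without LM2 replicate 1 (adjusted p = 0.024, edgeR). BrM2 against Par gave -0.31 (interval -0.84 to 0.22, adjusted p = 0.50, edgeR). SNAI2 was the more abundant of the SNAI pair per kilobase of transcript in every library, with a ratio of SNAI2 to SNAI1 of 5.96, 14.6 and 19.9 in Par, 8.63, 28.2 and 39.3 in LM2 and 13.0, 24.7 and 23.9 in BrM2. At each replicate number the ratio was lowest in Par.

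ZEB1, a zinc finger and homeobox repressor and a target of the miR-200 family, lies at chr10:31318417-31529804 (plus strand, ENSG00000148516). In replicates 1, 2 and 3 it had 26.3, 90.7 and 104 CPM in Par. LM2 had 31.9, 106 and 139 CPM, and BrM2 had 18.2, 101 and 62.6 CPM. Replicate 1 was the lowest library of every line by a wide margin, and all 3 lines overlapped. The means were 73.8 ± 41.7 CPM in Par, 92.3 ± 54.8 in LM2 and 60.5 ± 41.2 in BrM2. LM2 against Par gave a log2 fold change of 0.32 (SE 0.73, interval -1.33 to 1.97, adjusted p = 0.89, edgeR). The value of BrM2 against Par was -0.29 (interval -1.94 to 1.37, adjusted p = 0.88, edgeR). BrM2 against LM2 gave -0.61 (SE 0.73, adjusted p = 0.73, edgeR), and with the replicate block -0.66 (SE 0.18, adjusted p = 0.017, edgeR). Within replicate numbers the log2 difference of BrM2 from LM2 was -0.81, -0.081 and -1.15, so replicate 2 was nearly level. ZEB1-AS1, on the other strand over 4.6% of the exon bases of ZEB1, had 33 to 175 counts per library.

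ZEB2 (SIP1), the paralog of ZEB1, lies at chr2:144384081-144520119 (minus strand, ENSG00000169554). In replicates 1, 2 and 3 it had 9.40, 13.3 and 13.9 CPM in Par. LM2 had 13.4, 30.2 and 30.6 CPM, and BrM2 had 10.7, 20.8 and 19.0 CPM. At each replicate number the order was Par, BrM2, LM2 from low to high, but LM2 replicate 1 fell within the range of Par. The means were 12.2 ± 2.46 CPM in Par, 24.7 ± 9.81 in LM2 and 16.8 ± 5.38 in BrM2. The log2 fold change of LM2 against Par was 1.02 (SE 0.38, interval 0.17 to 1.87, adjusted p = 0.16, edgeR), and 0.95 with the replicate block (SE 0.16, adjusted p = 0.0010, edgeR). BrM2 against LM2 gave -0.55 (SE 0.37, adjusted p = 0.47, edgeR) and -0.53 with the block (SE 0.16, adjusted p = 0.023, edgeR). BrM2 against Par gave 0.46 (interval -0.38 to 1.31, adjusted p = 0.53, edgeR), and the adjusted p was 0.053 with the block. The ratio of ZEB2 to ZEB1 per kilobase was 0.229, 0.094 and 0.0856 in Par, 0.269, 0.182 and 0.141 in LM2 and 0.376, 0.133 and 0.194 in BrM2. ZEB1 was thus the more abundant ZEB transcript in all 9 libraries, and the ratio was lowest in Par at each replicate number. ZEB2-AS1, on the other strand, had 0 or 1 count in each library.

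TWIST1 and TWIST2 are basic helix-loop-helix factors that act in mesoderm and in EMT. TWIST1 lies at chr7:19113047-19117636 (ENSG00000122691) and TWIST2 at chr2:238848085-238910534 (ENSG00000233608). Both had 0 counts in all 9 libraries. A count of 0 allows up to 3 counts, which is 0.115 to 0.221 CPM depending on the library, and this limit covers counting error only. With line only 8.69%, 13.3% and 8.1% of all tested genes passed in LM2 against Par, BrM2 against Par and BrM2 against LM2. Among the 9 listed helix-loop-helix partners and inhibitors of TWIST, 5 were tested and 0 passed the edgeR test in any comparison. At an unadjusted p under 0.05 the counts were 1 in LM2 against Par, 2 in BrM2 against Par and 0 in BrM2 against LM2, and DESeq2 called as many. With the replicate block 2, 3 and 0 passed, where 34.5%, 42.7% and 37.5% of all tested genes did. ID1, an inhibitor of helix-loop-helix factors, had 36.0 ± 15.5 CPM in Par, 10.5 ± 3.11 in LM2 and 12.9 ± 8.64 in BrM2. Its log2 fold change was -1.78 in LM2 (adjusted p = 0.067, edgeR) and -1.49 in BrM2 (adjusted p = 0.094, edgeR), with adjusted p-values of 0.0013 and 0.0023 under the replicate block. TCF4, an E protein, had 0 counts in LM2 and a mean of 1.28 CPM in BrM2 and 0.0643 in Par, with at most 39 counts in a library.

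EPCAM encodes an epithelial cell adhesion protein and lies at chr2:47369311-47387020 (plus strand, ENSG00000119888). In replicates 1, 2 and 3 it had 5.67, 7.89 and 7.94 CPM in Par. LM2 had 2.73, 5.83 and 5.90 CPM, and BrM2 had 4.36, 6.93 and 7.0 CPM. The order at each replicate number was LM2, BrM2, Par from low to high, while the lines overlapped. The means were 7.17 ± 1.29 CPM in Par, 4.82 ± 1.81 in LM2 and 6.09 ± 1.51 in BrM2. LM2 against Par gave a log2 fold change of -0.57 (SE 0.34, interval -1.34 to 0.20, adjusted p = 0.43, edgeR), and -0.61 with the replicate block (SE 0.18, adjusted p = 0.022, edgeR). BrM2 against Par gave -0.23 (interval -1.0 to 0.54, adjusted p = 0.77, edgeR), and BrM2 against LM2 gave 0.34 (interval -0.44 to 1.11, adjusted p = 0.67, edgeR).

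ESRP2 lies at chr16:68229033-68236127 (minus strand, ENSG00000103067). Its counts were 147, 160 and 168 in Par, 54, 48 and 65 in LM2 and 198, 252 and 284 in BrM2. As CPM these were 7.72, 7.74 and 6.60 in Par, 2.68, 1.96 and 2.49 in LM2 and 14.6, 11.1 and 13.6 in BrM2. The 3 lines did not overlap, and the order LM2, Par, BrM2 held at each replicate number. The means were 7.36 ± 0.654 CPM in Par, 2.38 ± 0.375 in LM2 and 13.1 ± 1.80 in BrM2. LM2 against Par gave a log2 fold change of -1.63 (SE 0.22, interval -2.14 to -1.12, adjusted p = 0.0024, edgeR). In BrM2 against Par it was 0.83 (SE 0.22, interval 0.35 to 1.32, adjusted p = 0.033, edgeR). BrM2 against LM2 gave 2.46 (SE 0.23, interval 1.95 to 2.98, adjusted p = 0.00036, edgeR), and the values within replicate numbers were 2.45, 2.51 and 2.45. The ESRP2 calls of BrM2 against LM2 and of LM2 against Par were kept in all 9 fits without a single library. Without replicate number 2 of all lines the log2 fold changes were 2.45 and -1.45 and both calls were lost (adjusted p = 0.074 and 0.19, edgeR), and without number 3 they were 2.49 and -1.69 (adjusted p = 0.059 and 0.15, edgeR). The rise of BrM2 over Par was less firm: it was kept in 2 of the 9 fits without a single library (without LM2 replicate 1 or LM2 replicate 2), with log2 fold changes of 0.75 to 0.95 and adjusted p-values of 0.028 to 0.13 (edgeR), and it was lost without any 1 library of Par or BrM2 or without LM2 replicate 3. NFATC3, on the other strand over 4.4% of the exon bases of ESRP2, had 366 to 918 counts per library and means of 22.5 CPM in Par, 29.3 in LM2 and 34.1 in BrM2. The part of NFATC3 reads in the ESRP2 counts was not tested.

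ESRP1, the paralog of ESRP2 on chromosome 8 (94641174 to 94707466, ENSG00000104413), was close to the limit of counting. It had 0, 1 and 6 counts in Par, 6, 9 and 20 in LM2 and 1, 5 and 6 in BrM2. The means were 0.0947 ± 0.125 CPM in Par, 0.477 ± 0.253 in LM2 and 0.194 ± 0.109 in BrM2. By CPM all LM2 libraries lay above all others, though only narrowly above BrM2 (0.298 against 0.288), and LM2 was the lowest line for ESRP2. In a fit with no filter on low counts, LM2 against Par gave a log2 fold change of 2.22 (SE 0.78, interval 0.63 to 3.81, adjusted p = 0.13, edgeR). The BrM2 value against Par was 0.99 (SE 0.89, adjusted p = 0.68, edgeR). The deposited counts are per gene, so splice forms were not measured.

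**Figure D2:**
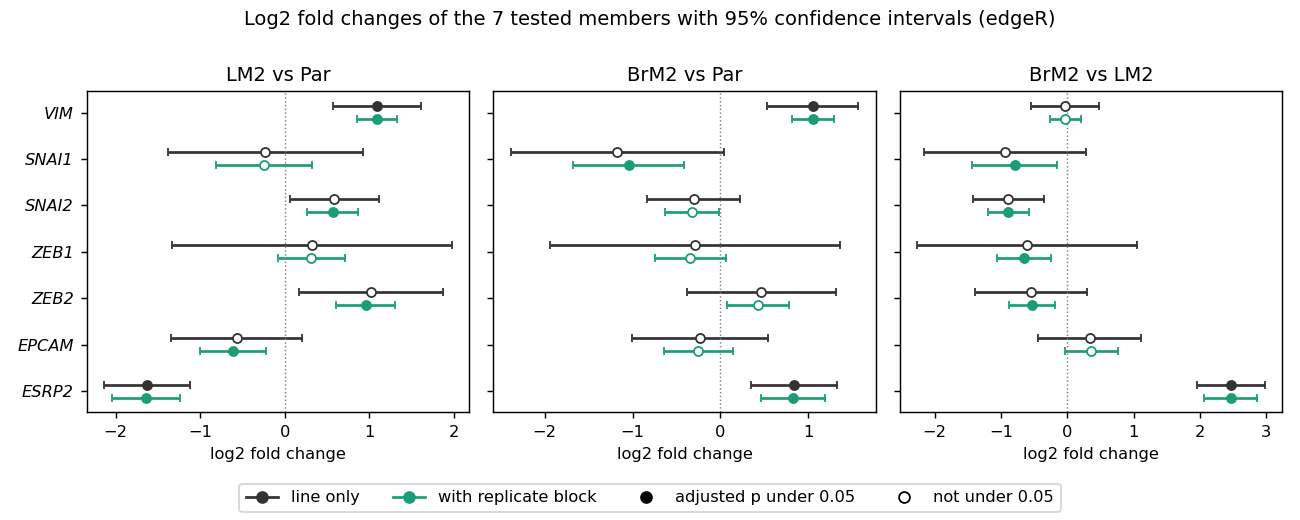
Log2 fold change (x axis) of the 7 tested members with 95% confidence intervals for the 3 comparisons, from the fit with line only and the fit with the replicate number as a block (filled points: adjusted p under 0.05). VIM and ESRP2 were filled in both fits against Par, and the intervals of ZEB1 narrowed most under the block, with an SE of 0.18 in place of 0.73.

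Counted over the members, 2 of the 7 tested passed in LM2 against Par (VIM higher, ESRP2 lower), where 8.69% of all tested genes passed (4.17% higher and 4.52% lower). In BrM2 against Par 2 of 7 passed (VIM and ESRP2, both higher) against 13.3% of all tested genes (6.25% higher and 7.02% lower). In BrM2 against LM2 1 of 7 passed (ESRP2 higher) against 8.1% of all tested genes (4.11% higher and 3.99% lower). With the replicate block the counts were 5, 3 and 5 of 7, including SNAI1 in both comparisons of BrM2, and 34.5%, 42.7% and 37.5% of all tested genes passed. The groups did not overlap for 3 members in LM2 against Par (VIM, SNAI2, ESRP2), 3 in BrM2 against Par (VIM, SNAI1, ESRP2) and 2 in BrM2 against LM2 (SNAI2, ESRP2). Among all tested genes the groups did not overlap for 25.2%, 31.3% and 23.1%. SNAI1 passed the filter only through replicate 1 of Par and of LM2, where it is high. Its part in the block counts and in the count without overlap is therefore a description. The smallest two-sided p that an exact permutation test of 3 against 3 libraries allows is 0.1.

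Replicate 1 stood apart from replicates 2 and 3 in all 3 lines, and its position depended on GC content. Over all tested genes, the median log2 difference of replicate 1 from the mean of replicates 2 and 3 was -1.07 for transcripts under 40% GC and 0.77 for those of at least 60% GC. For ZEB1 (38.9% GC) this difference was -1.89 in Par, -1.94 in LM2 and -2.16 in BrM2, and for ZEB2 (39.0% GC) it was -0.54, -1.18 and -0.89. SNAI2 (41.2% GC) had -0.21, -0.53 and -0.48, and EPCAM (44.3% GC) had -0.48, -1.10 and -0.68. All 4 tested members under 45% GC were thus lower in replicate 1 of every line. VIM (54.3% GC) was higher in replicate 1 by 0.45, 0.46 and 0.44, ESRP2 (57.7% GC) by 0.11, 0.27 and 0.24 and SNAI1 (58.4% GC) by 1.30, 1.41 and 0.42. ZEB1 moved more between replicate 1 and the others than between any pair of lines. When replicate 1 of all lines was left out, 4 of 7 members passed in LM2 against Par (VIM, SNAI2 and ZEB2 higher, ESRP2 lower, with 33.1% of all tested genes). In BrM2 against Par 3 of 7 passed (VIM, ZEB2 and ESRP2 higher, with 40.4% of all), and in BrM2 against LM2 3 of 7 (ESRP2 higher, SNAI2 and ZEB2 lower, with 32.6% of all). In that fit ZEB2 had a log2 fold change of 1.16 in LM2 against Par (adjusted p = 0.00058, edgeR) and 0.56 in BrM2 against Par (adjusted p = 0.012, edgeR). SNAI2 had 0.68 in LM2 against Par (adjusted p = 0.0076, edgeR).

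**Figure D3:**
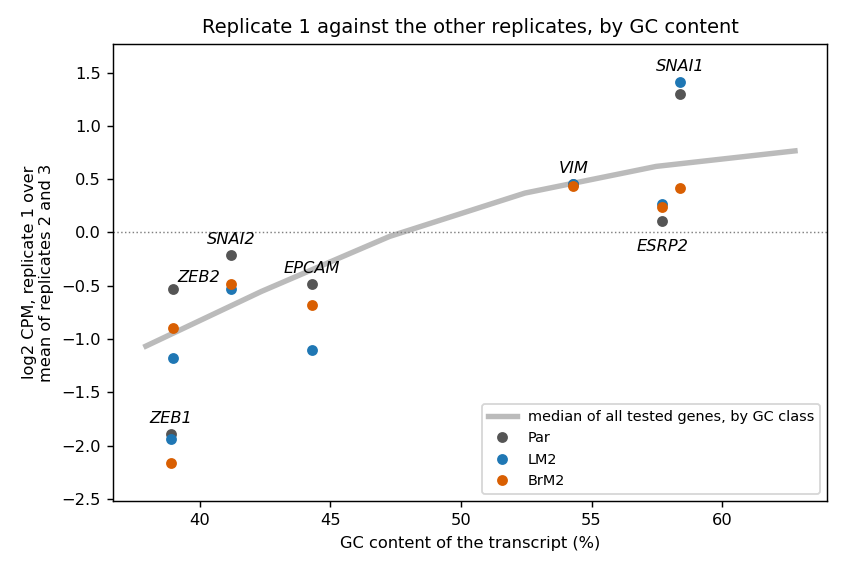
Log2 CPM of replicate 1 over the mean of replicates 2 and 3 (y axis) against the GC content of the transcript in percent (x axis) for the 7 tested members in the 3 lines, with the median of all tested genes by GC class as a grey line. The points of ZEB1 lie near -2, under the grey line, and those of VIM on it.

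Compared per kilobase of transcript in Par, VIM was by far the most abundant member (336 ± 63.6 CPM per kilobase). SNAI2 (15 ± 1.47) and ZEB1 (12.4 ± 7.03) came next and did not differ beyond their spread. EPCAM (4.63 ± 0.836), ESRP2 (2.15 ± 0.191), SNAI1 (1.38 ± 0.788) and ZEB2 (1.32 ± 0.265) followed, and SNAI1 did not differ from either of its neighbours beyond its spread. In LM2 ZEB2 stood at 2.67 ± 1.06 CPM per kilobase and ESRP2 stood at 0.693 ± 0.109, within the spread of SNAI1 at 1.17 ± 0.729, whereas in BrM2 ESRP2 stood at 3.83 ± 0.524, next to EPCAM at 3.94 ± 0.974 and within its spread.

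The genes most like the called members across the 9 libraries were found by Pearson's correlation of log2 CPM among 11875 genes. For VIM these were TSPAN14 (r = 0.983), MSX2 (r = 0.982) and PDGFRL (r = 0.979). TSPAN14, a tetraspanin, averaged 133 CPM in Par, 276 in LM2 and 254 in BrM2. For ESRP2 they were CYB5A (r = 0.990), ENSG00000267279 (r = 0.989) and EHD3 (r = 0.987). CYB5A, a cytochrome b5, averaged 27.4 CPM in Par, 10.9 in LM2 and 42.5 in BrM2, and EHD3, an endocytic trafficking protein, averaged 5.75, 0.475 and 12.3. The 9 libraries share the line and the replicate number, so these values describe likeness only.

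The other splicing regulators of EMT were read from a list of 21 genes, all of which were tested. In LM2 2 rose against Par (KHDRBS3 and RBM24) and 1 fell (RBM47), and in BrM2, against the same Par libraries, 2 rose (KHDRBS3 and RBM24) and 1 fell (RBM47). With the replicate block 5 were higher and 1 lower in LM2, and 7 were higher and 2 lower in BrM2. In BrM2 against LM2 1 was lower (RBM47), and with the block 3 were higher and 3 lower. Of all tested genes 8.69%, 13.3% and 8.1% passed with line only in LM2 against Par, BrM2 against Par and BrM2 against LM2. With the block 34.5%, 42.7% and 37.5% of all tested genes passed, so the 6, 9 and 6 of 21 lay near the share of all genes. The list medians were 0.17 and 0.13 on the log2 scale, against 0.01 and -0.02 for all tested genes. RBM47, an RNA-binding protein of epithelial cells, fell from 36.3 ± 2.41 CPM in Par to 3.07 ± 0.599 in LM2 (log2 fold change -3.56, SE 0.23, adjusted p = 8.5e-05, edgeR) and to 1.35 ± 0.185 in BrM2 (-4.76, SE 0.25, adjusted p = 2.5e-05, edgeR). RBM47 was also lower in BrM2 than in LM2, with a log2 fold change of -1.2 (adjusted p = 0.013, edgeR), the reverse of ESRP2. Its BrM2 libraries, at 1.19 to 1.55 CPM, lay under the filter threshold, so RBM47 was tested only through the other lines. KHDRBS3, a STAR-family splicing factor, rose from 16.3 ± 1.91 CPM in Par to 37.8 ± 2.73 in LM2 (1.21, adjusted p = 0.0037, edgeR) and 57.4 ± 5.54 in BrM2 (1.81, adjusted p = 0.00035, edgeR). RBM24, known from muscle splicing, rose from 9.67 ± 1.66 CPM to 24.7 ± 6.32 in LM2 (1.35, adjusted p = 0.015, edgeR) and 31.7 ± 6.27 in BrM2 (1.71, adjusted p = 0.0035, edgeR). RBFOX2 and QKI, which act in the mesenchymal splicing program, did not pass. RBFOX2 had 194 ± 17.4, 239 ± 25.3 and 219 ± 30.5 CPM in Par, LM2 and BrM2, and its LM2 difference had an adjusted p of 0.40 (edgeR) and 0.044 with the replicate block. QKI had 112 ± 19.0, 112 ± 35.5 and 164 ± 42.4 CPM, with adjusted p-values of 0.31 for BrM2 against Par and 0.36 against LM2 (edgeR), and 0.010 and 0.0081 with the block. Of 7 genes whose transcripts ESRP proteins splice, 6 were tested and 0 passed in any comparison in edgeR. At an unadjusted p under 0.05 and with DESeq2 the count was also 0, and with the replicate block 2, 3 and 1 passed in LM2 against Par, BrM2 against Par and BrM2 against LM2, where 34.5%, 42.7% and 37.5% of all tested genes did. Among the tested were CD44 (611 CPM in Par, 719 in LM2 and 753 in BrM2) and CTNND1 (256, 242 and 231). FGFR2 had 0 to 5 counts per library.

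**Figure D4:**
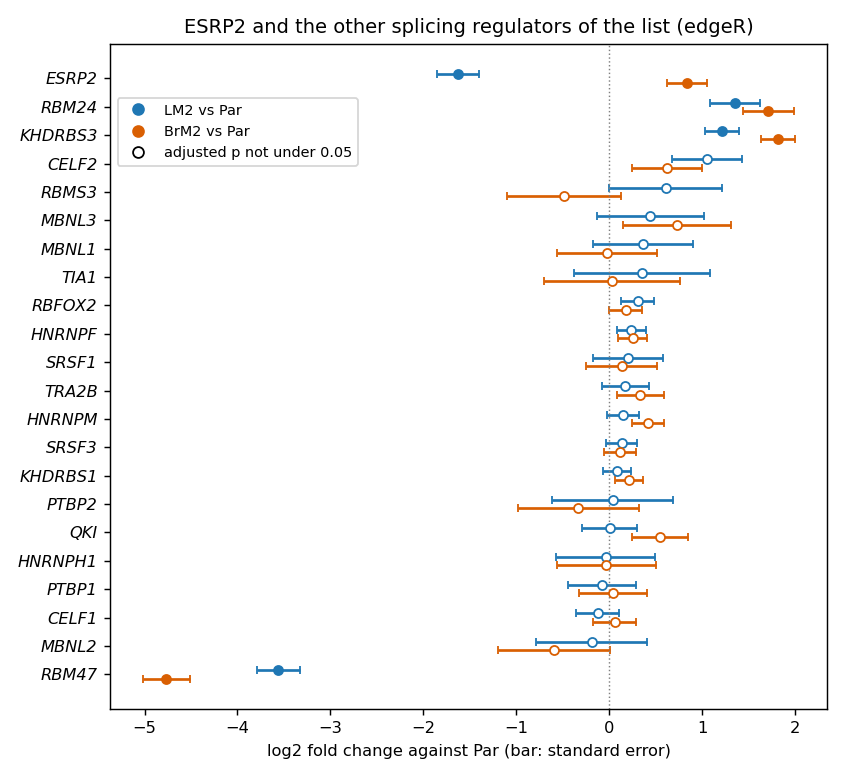
Log2 fold change against Par (x axis, bar for the SE) of ESRP2 and the 21 other splicing regulators (y axis) in LM2 and BrM2, with filled points for an adjusted p under 0.05. RBM47, at -3.56 and -4.76, lies far left of the rest, and ESRP2 is filled on opposite sides of 0.

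Of 15 other EMT-promoting transcription factors, 11 were tested. In LM2 against Par 1 rose (PRRX1), and in BrM2 against Par 1 rose (PRRX1) and 1 fell (SOX4). In BrM2 against LM2 1 was higher (FOXQ1) and 1 lower (SOX4), and the medians of the 3 comparisons were 0.03, 0.0045 and -0.17. With line only 8.69%, 13.3% and 8.1% of all tested genes passed in these comparisons. With the replicate block 3 were higher and 2 lower, 3 higher and 1 lower, and 1 higher and 4 lower, in the same order, where 34.5%, 42.7% and 37.5% of all tested genes passed in either direction. PRRX1, a homeobox factor of mesenchyme, rose from 0.357 ± 0.159 CPM in Par to 3.67 ± 1.11 in LM2 (3.34, SE 0.49, adjusted p = 0.0033, edgeR) and 2.05 ± 0.956 in BrM2 (2.52, adjusted p = 0.0099, edgeR), and was tested only through those lines. SOX4 was at 25 ± 8.96 CPM in Par, 17.1 ± 5.18 in LM2 and 6.84 ± 1.15 in BrM2, which was lower than in Par (-1.87, adjusted p = 0.0074, edgeR) and than in LM2 (-1.32, adjusted p = 0.047, edgeR). FOXQ1, a forkhead factor, had 19.6 ± 2.28, 13.7 ± 2.85 and 38.9 ± 16.3 CPM, and BrM2 was higher than LM2 (1.5, adjusted p = 0.018, edgeR).

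Of 12 epithelial transcription factors, 6 were tested: 1 rose and 1 fell in LM2, 1 rose and 1 fell in BrM2, and 1 was higher in BrM2 than in LM2. Of all tested genes 8.69%, 13.3% and 8.1% passed in these comparisons with line only. With the block 1 rose and 3 fell in LM2, 1 rose and 3 fell in BrM2, and 3 were higher and 1 lower in BrM2 than in LM2, where 34.5%, 42.7% and 37.5% of all tested genes passed. The factors GRHL2 and OVOL2, which repress ZEB1 in epithelial cells, had no more than 7 counts in any library. GATA3, a luminal factor, fell in LM2 from 12.9 ± 3.41 to 4.33 ± 0.442 CPM (-1.58, adjusted p = 0.012, edgeR) and was at 7.50 ± 2.36 in BrM2 (adjusted p = 0.13, edgeR, and 0.0074 with the replicate block). ELF3 fell in BrM2 from 4.98 ± 1.95 to 0.628 ± 0.457 CPM (-3.06, adjusted p = 0.016, edgeR) and had 1.72 ± 0.893 in LM2 (adjusted p = 0.17, edgeR, and 0.0043 with the block). Its BrM2 libraries, at 0.132 to 1.03 CPM, lay under the filter threshold, so ELF3 was tested only through the other lines. The gene counted as higher in all 3 comparisons was FOXA1, named after its values were seen, which had 0 to 0.0393 CPM in Par, 0.530 to 0.646 in LM2 and 1.33 to 2.64 in BrM2, and at most 55 counts in a library. It passed the filter only through BrM2, where it is highest, so its calls are given as a description.

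Junction, surface and mesenchymal genes moved in both directions. Of 21 junction and surface genes 16 were tested: 1 rose and 3 fell in LM2, and 3 rose and 2 fell in BrM2. In BrM2 against LM2 4 were higher and 1 lower. With the replicate block 1 rose and 8 fell in LM2, 3 rose and 6 fell in BrM2, and 6 were higher and 2 lower in BrM2 than in LM2. In the fit with line only 8.69%, 13.3% and 8.1% of all tested genes passed in these comparisons, and with the block 34.5%, 42.7% and 37.5%. CLDN4, a tight junction claudin, fell from 95.3 ± 19.6 CPM in Par to 5.84 ± 1.69 in LM2 (-4.03, adjusted p = 0.0010, edgeR) and 20.0 ± 11.7 in BrM2 (-2.26, adjusted p = 0.0093, edgeR). CLDN1 rose in BrM2 (1.81, adjusted p = 0.0043, edgeR), as did CGN, which encodes cingulin (1.66, adjusted p = 0.0055, edgeR). CDH1 lay under the filter, at means of 1.2 CPM in Par, 0.345 in LM2 and 0.431 in BrM2. Of 26 mesenchymal genes 23 were tested: 5 rose and 2 fell in LM2, and 3 rose and 5 fell in BrM2. BrM2 held less than LM2 for 10 of the 23 and more for 2, with a median of -0.40. With the block 11 rose and 4 fell in LM2, 5 rose and 7 fell in BrM2, and 4 were higher and 13 lower in BrM2 than in LM2, beside the same shares of all tested genes (34.5%, 42.7% and 37.5%). FN1 (fibronectin), unlike VIM, fell in BrM2, with 886 ± 140 CPM in Par, 1131 ± 19.1 in LM2 and 290 ± 16.7 in BrM2 (-1.61 against Par, adjusted p = 0.00041, edgeR). Its LM2 difference from Par had an adjusted p of 0.28 (edgeR), and 0.046 with the block. SPARC, a matrix glycoprotein, rose from 2.13 CPM in Par to 481 ± 152 in LM2 (7.81, adjusted p = 8.4e-05, edgeR) and 19.5 ± 10.9 in BrM2 (3.19, adjusted p = 0.0012, edgeR). TGFBI, a matrix protein, fell in BrM2 to 23.1 CPM from 190 in Par (-3.04, adjusted p = 0.00017, edgeR). COL1A2 had 520 to 625 counts per library in Par, 117 to 143 in LM2 and 0 to 1 in BrM2. CDH2 (N-cadherin) had 3 to 14 counts per library.

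None of the 16 corepressors and chromatin partners of these factors, and none of the 12 genes that set the stability of the factor proteins, passed in any comparison in edgeR. With line only 8.69%, 13.3% and 8.1% of all tested genes passed in LM2 against Par, BrM2 against Par and BrM2 against LM2. In lists of this size, counts of 0 do not show that the genes were unchanged. At an unadjusted p under 0.05 there were 2, 2 and 3 of the corepressors and 0, 1 and 2 of the stability genes in LM2 against Par, BrM2 against Par and BrM2 against LM2, and DESeq2 called 0, 1 and 1 and 0, 1 and 0. With the replicate block 4 of the corepressors passed in LM2 against Par (2 higher, 2 lower), 5 in BrM2 against Par (3 higher, 2 lower) and 4 in BrM2 against LM2 (3 higher, 1 lower), where 34.5%, 42.7% and 37.5% of all tested genes did. Of the stability genes, 2 (1 higher), 4 (3 higher) and 1 (higher) passed with the block. Of 15 relatives, antisense genes and pseudogenes 5 were tested, and NES (nestin), an intermediate filament relative of VIM, fell in LM2 from 49.1 ± 5.22 to 28.5 ± 2.95 CPM (-0.79, adjusted p = 0.027, edgeR). Of all tested genes 8.69% passed in LM2 against Par with line only. NES was at 41.8 ± 3.25 CPM in BrM2 (adjusted p = 0.50, edgeR). VIM-AS1 did not pass against Par in LM2 (adjusted p = 0.38, edgeR, and 0.032 with the block), where its mean was lower, at 3.00 against 4.76 CPM, while VIM was higher. ZEB1-AS1 had means of 4.19, 4.92 and 4.64 CPM and SNAI3-AS1 of 1.34, 1.55 and 1.27 CPM in Par, LM2 and BrM2, and SNAI1P1 had 0 counts.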

How the data were processed

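RNA-seq of Par, LM2 and BrM2 was analysed from a table of gene counts. The authors prepared libraries with the TruSeq stranded mRNA kit, sequenced paired ends, mapped reads to hg38 with STAR, which also made the counts per gene, and the deposited table holds those raw counts. The submitters' processing notes name CASAVA 1.8.2, STAR 2.7.0 and DESeq2. The counted strand is not given in the sources used here, so genes with exons on the other strand are uncertain. The authors also deposited DESeq2 comparisons with Par (log2 fold changes and adjusted p-values), which were not used. ChIP-seq and ATAC-seq were not used here.

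The table had 58887 rows. 3 identifiers were repeated with the same counts under another symbol and were counted once, which left 58884 genes. Genes were kept by a filter written after HTSFilter (100 thresholds from 1 to 200, loess span 0.3), which chose 47.15 normalized counts, to be passed in at least 1 library, and kept 13055 genes. Library totals were 14371858 to 24511786 counts, and 3 counts correspond to 0.115 to 0.221 CPM. CPM were scaled by TMM. The 3 lines were fitted together with edgeR 4.0.16 in R 4.3.3 (glmQLFit and glmQLFTest, line as the only term), and p-values were adjusted by Benjamini-Hochberg over all 13055 genes with a threshold of 0.05. The scripts were tested on simulated data.

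Replicate numbers are in the sample titles. Same-numbered libraries deviated together from their line means, with Pearson's r across genes of 0.23 to 0.90 over 9 pairs. Libraries with different numbers had r of -0.88 to 0.80. These values were negative where replicate 1 was in the pair and 0.39 to 0.80 between numbers 2 and 3. They set number 1 apart but do not clearly separate number 2 from number 3. The numbers were taken to pair the libraries, and a fit with the number as a block was also made. Other alternatives were DESeq2 1.42.0, RLE scaling, no filter, filterByExpr, 2 lines only and fits without each library or replicate number. GC content was available for 12989 of the 13055 genes. The log2 differences of replicate 1 over all tested genes used a pseudocount of 0.1 CPM, and those of the members used none. The members and lists were chosen with earlier results of these data known. From each list, up to 4 genes with the smallest adjusted p among those called and with a mean of at least 50 counts were named, with others fixed by name (CDH1, CDH2, FN1, GRHL2, OVOL2, RBFOX2, QKI, RBM47, PRRX1, TCF4, ID1, NES, antisense genes and pseudogenes). 1 further gene of these lists is not reported here. Lists are described by counts and medians, with no test of the list. Further genes were named after their values were seen (FOXA1, CD44, CTNND1, FGFR2, NFATC3).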

Additional observations from a re-analysis of the deposited data

Results flagged for a closer look

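ESRP2 differed between the metastatic lines in its change from Par. It was lower than Par in all 3 LM2 libraries and higher in all 3 BrM2 libraries, and the difference between the effects, which is BrM2 against LM2, was 2.46 on the log2 scale (SE 0.23, adjusted p = 0.00036, edgeR with Benjamini-Hochberg adjustment). Both effects use the same Par libraries, which cancel in this comparison. The difference was 2.34 to 2.56 in the 9 fits without a single library, all past the threshold. The call was lost without replicate number 2 (2.45, adjusted p = 0.074, edgeR) and without number 3 (2.49, adjusted p = 0.059, edgeR).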

How the results depend on the processing

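Each of the 21 member log2 fold changes was read under 18 alternatives, which gave 378 values. Of these values, 325 kept direction and side of the threshold, 24 lost the call, 19 gained it and 10 changed sign. These 10 were all in fits without a library or replicate number. Members passing in LM2 against Par numbered 2 and were 5 with the replicate block, in BrM2 against Par 2 and were 1 with 2 lines only and 1 with no filter, and in BrM2 against LM2 1 and were 2 with DESeq2, 2 with filterByExpr, 2 with RLE scaling and 5 with the replicate block. Genes passing in LM2 against Par numbered 1134 and were 1893 with DESeq2 and 4510 with the replicate block. In BrM2 against Par they numbered 1733 and were 2520 with DESeq2 and 5577 with the block. In BrM2 against LM2 they numbered 1057 and were 598 with 2 lines only, 1824 with DESeq2 and 4896 with the block. Other alternatives, some of which also changed these counts of members and genes, are not listed here. Over the fits without a library or replicate number, members passing ranged from 0 to 4, 0 to 3 and 0 to 3, and genes passing from 70 to 4327, 159 to 5274 and 53 to 4257, in the same order of comparisons. The replicate block pairs the libraries by number and lowered the common dispersion from 0.110 to 0.0207. It ended no member call. Sign changes without a library or number gave ranges of -0.86 to 0.33 for SNAI1 in LM2 against Par, -0.20 to 0.13 for VIM in BrM2 against LM2, -0.86 to 0.14 for ZEB1 in BrM2 against Par and -0.095 to 0.73 for ZEB1 in LM2 against Par. None of these passed the test. The fits without replicate number 2 or 3 of all lines, which keep replicate 1, lost every call, with adjusted p up to 0.51 for ESRP2 in BrM2 against Par.

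With 2 lines only the adjusted p of ESRP2 in BrM2 against Par was 0.054, and with no filter 0.17. With DESeq2, ZEB2 passed in LM2 against Par (1.05, adjusted p = 0.047) and SNAI2 in BrM2 against LM2 (-0.90, adjusted p = 0.0025). The SNAI2 difference is the call that RLE scaling and filterByExpr added. The cause of these changes was not tested.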
